A study of Mus musculus with 24 samples.

Results

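The proteasome genes described here are the 42 gene models whose symbol runs from Psma to Psmf followed by a number and whose mean over the 24 libraries was at least 10 counts. They were taken from 36172 gene models, 44 of which carry such a symbol. Psma8, with a mean of 0.8 counts, and Psmb11, with 0.2, fell below the minimum. By role the 42 comprise 7 genes of the alpha ring of the core particle, 7 of its constitutive beta ring, 3 inducible beta genes, 6 ATPases and 3 other subunits of the base of the regulatory particle, 8 subunits of its lid, 3 assembly factors of the base, 4 activator genes and 1 inhibitor gene. All 42 passed the filter on low counts and were tested, in every comparison, among 13048 genes. The 6 annotated pseudogene rows of this family in the tables were listed at 0 in all libraries.

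The proteasome is the protease of the cytosol and nucleus that degrades proteins marked with ubiquitin chains. Its core particle is a barrel with outer rings of alpha subunits, which gate the entrance, and inner rings of beta subunits, of which Psmb5, Psmb6 and Psmb7 cut the chain. The regulatory particle recognises ubiquitin, removes it and unfolds the substrate with a ring of ATPases, and other caps such as the PA28 complex (Psme1 and Psme2) can take its place. In skeletal muscle the ubiquitin-proteasome system is a main route by which myofibrillar protein is lost during disuse and insulin deficiency, and cells that lack proteasome capacity raise the subunit genes together through the transcription factor NRF1, encoded by Nfe2l1.

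The libraries came from whole frozen gastrocnemius, the large calf muscle, of C57BL/6 mice, in 6 groups of 4. Mice labelled WT carried floxed Notch2 alleles alone (Notch2f/f), and mice labelled Notch2-mKO carried the same alleles together with Mlc1fCre, a Cre recombinase expressed from a myosin light chain locus active in muscle fibres, so both genotypes share the floxed alleles and other cell types of the muscle keep the gene. Controls of each genotype stand beside muscle unloaded for 7 days by suspending the hindlimbs, and muscle taken 14 days after streptozotocin at 150 mg/kg, a toxin of pancreatic beta cells used to cause diabetes. The labels give no age and do not say whether replicates were separate animals, so the p-values reflect sample-to-sample spread only, and some of that spread may be technical.

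Depth ran from 33112459 to 56369917 counts per library, and 3 counts in the shallowest library correspond to 0.0906 CPM, the count scaled to a common library total with TMM factors. Muscle fibre markers were high in every library, at 188428 to 390648 CPM summed over 12 genes. The lowest sum lay in unloaded Notch2-mKO muscle (group median 313188), and no other group fell below 239948. Replicate 1 of unloaded Notch2-mKO muscle had a TMM factor of 1.28, against 0.86 to 1.11 in the other libraries. Notch2 itself was at 1.84 ± 0.068 CPM (SD, n = 4) in WT controls and 1.87 ± 0.584 in Notch2-mKO controls and was not called between genotypes in any condition, so its gene-level counts do not check the genotype labels. Base composition also tracked the treatments. Low-GC genes (1026 under 42%) less high-GC genes (2755 over 56%), as mean log2 levels centred over the libraries, gave -1.02 to -0.19 in WT controls, 0.38 to 0.56 in unloaded WT and 0.22 to 0.57 in diabetic WT libraries, and -0.65 to 0.06, -0.22 to 0.33 and -0.02 to 0.33 in the corresponding Notch2-mKO groups. Calls were therefore also made after subtracting this GC and transcript length trend from every library, and the proteasome genes that lost their call in the 4 comparisons with controls are named. Because whole muscle was measured, fewer cells of a type and less RNA per cell cannot be told apart.

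Subunit genes that move together are thought to share promoter elements, and 36 of the 42 genes had a promoter window in the RefSeq table (GRCm38.p6). Psmb1, Psmb2, Psmb7, Psmc3, Psmd3 and Psmd7 did not. Psma6, Psmc2 and Psme2 had 2 windows each, and a match in either counted. For the shares over all genes only the first window of each gene was searched. The 250 bases before each start were searched on both strands for 3 sets of letters, none of which overlapped a different one in any window. The antioxidant response element core bound by NRF1 and NRF2, TGACNNNGC, was found in 5 of 36 genes (13.9%; Psmb5, Psmb6, Psmc6, Psmd9 and Psmd12) and in 10.1% of 27025 genes with a window. CCAAT was found in 36.1% and 34.5%, and the interferon-stimulated response element core, a pair of GAAA blocks 2 bases apart, in 8.33% (Psmb3, Psmd4 and Psmd9) and 3.04%. Among the 17 genes with a window that rose in unloaded WT muscle 11.8% held the antioxidant response element core, against 15.8% of the other 19. The interferon core was in no window of the 5 genes Psmb8, Psmb9, Psmb10, Psme1 and Psme2. These are matches of letters in a short window, not measured sites.

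The windows below belong to the ATPase gene with the largest rise, a lid gene called in both unloading comparisons, a catalytic gene that fell in diabetic WT muscle, and the activator gene that fell in all 4 treatment comparisons. They run 5′ to 3′ along the gene's own strand and carry the antioxidant response element core in capitals on either strand. The Psmc6 window ends on the listed first base of its RefSeq gene, and the other windows end at the base before it. The Psme1 window holds no match to that core or to the interferon core and has no capitals. They lie at chr14:45329574-45329823 (plus strand, Psmc6), chr11:107479278-107479527 (plus, Psmd12), chr14:54617996-54618245 (minus, Psmb5) and chr14:55578244-55578493 (plus, Psme1) of GRCm38.p6.
Psmc6: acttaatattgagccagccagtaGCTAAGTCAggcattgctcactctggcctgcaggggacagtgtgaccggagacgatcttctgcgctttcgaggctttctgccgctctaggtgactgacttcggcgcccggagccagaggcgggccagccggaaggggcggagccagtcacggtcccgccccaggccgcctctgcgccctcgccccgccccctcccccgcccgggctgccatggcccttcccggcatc
Psmd12: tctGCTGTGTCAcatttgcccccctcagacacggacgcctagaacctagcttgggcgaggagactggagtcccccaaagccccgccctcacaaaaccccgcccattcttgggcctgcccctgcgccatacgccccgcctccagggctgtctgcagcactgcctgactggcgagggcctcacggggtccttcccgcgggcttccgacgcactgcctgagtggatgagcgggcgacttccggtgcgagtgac
Psmb5: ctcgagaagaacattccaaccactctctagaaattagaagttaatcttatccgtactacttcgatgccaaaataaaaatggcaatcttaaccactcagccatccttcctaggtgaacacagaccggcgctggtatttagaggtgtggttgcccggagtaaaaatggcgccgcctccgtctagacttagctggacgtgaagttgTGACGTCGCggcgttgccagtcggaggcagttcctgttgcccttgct
Psme1: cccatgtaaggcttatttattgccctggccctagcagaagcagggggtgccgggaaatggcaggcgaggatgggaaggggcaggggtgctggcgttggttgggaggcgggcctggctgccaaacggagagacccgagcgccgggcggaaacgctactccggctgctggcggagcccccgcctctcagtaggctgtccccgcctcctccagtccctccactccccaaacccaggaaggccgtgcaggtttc

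The genes the results turn on lie, in GRCm38, at chr14:45329823-45349074 (plus strand, Psmc6), chr2:180036367-180042464 (minus, Psma7), chr3:95032688-95042614 (minus, Psmd4), chr16:20651122-20663414 (plus, Psmd2), chr11:30771775-30881150 (plus, Psme4) and chr14:55578494-55581527 (plus, Psme1). Psme2 lies close to Psme1, at chr14:55587440-55591101 on the minus strand, and Psmb8 and Psmb9 are neighbours at chr17:34198195-34201454 (plus) and chr17:34182030-34187330 (minus).

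In control muscle the subunits of 1 complex differed widely in level per length (mean CPM divided by transcript length in kilobases, a scale on which genes can be compared). Among WT controls the ATPase genes ran from 11.3 CPM per kb for Psmc6 to 149.6 for Psmc3, a 13.2-fold range. Alpha ring genes ran from 16.5 (Psma2) to 131.1 (Psma6), constitutive beta genes from 60.2 (Psmb2) to 197.5 (Psmb7) and lid genes from 18.5 (Psmd11) to 143.1 (Psmd8). The base subunits Psmd1, Psmd2 and Psmd4 lay close together at 73.6 to 117 CPM per kb. Below these stood the inhibitor Psmf1 (6.51), the assembly factors (2.79 to 7.10) and the inducible beta genes (0.939 to 6.07), whereas the activators were at 24.7 (Psme2) to 60.0 (Psme1). The order was alike in Notch2-mKO controls, where the same genes stood lowest and highest in each of these groups. Psmc6 stayed the lowest ATPase gene in all 6 groups, and its distance to Psmc3 was 5.78-fold in unloaded and 5.59-fold in diabetic WT muscle.

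**Figure D1:**
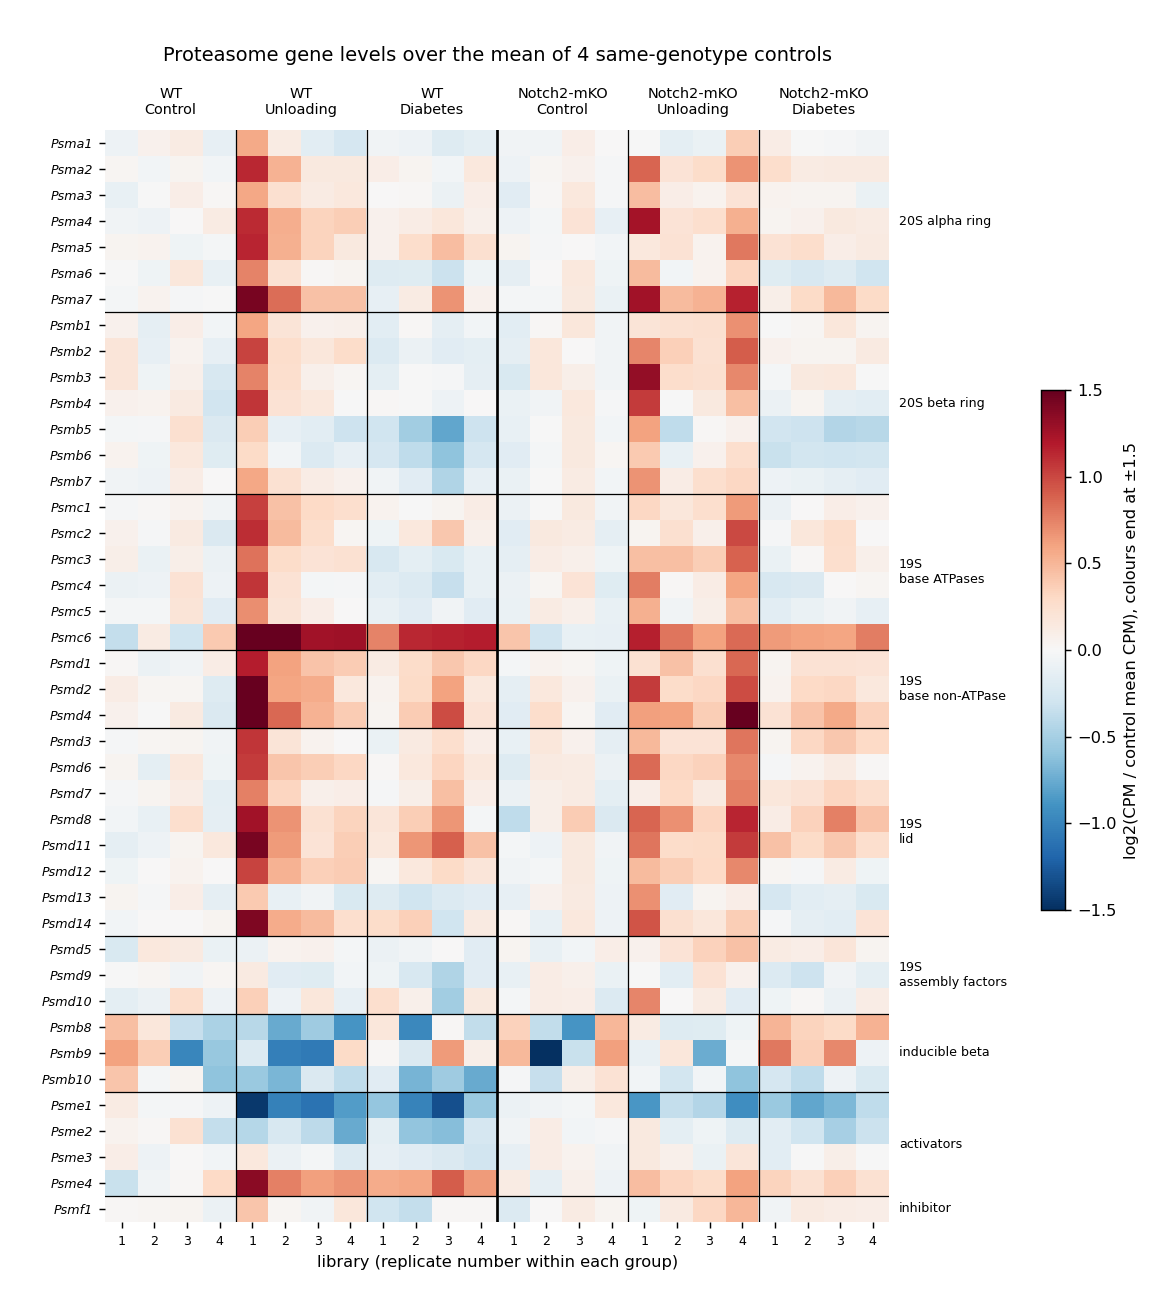
Heat map of the 42 proteasome genes (rows, grouped by subcomplex) in the 24 libraries (columns). Colour gives the log2 ratio of CPM to the mean of the same genotype's controls, with colours ending at 1.5 in either direction. Replicate 1 of unloaded WT muscle and replicates 1 and 4 of unloaded Notch2-mKO muscle are the columns with most core genes raised, and Psme1 is low in all 4 treated groups.

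In unloaded WT muscle 5 of 7 alpha ring genes and 12 of 17 genes of the ATPases, base and lid rose, 1 of 7 constitutive beta genes did, and the PA28 activator genes Psme1 and Psme2 fell. The contrast between the rings turned with the GC and length trend removed, when 2 of 7 alpha (Psma5 and Psma7) and 4 of 7 beta genes (Psmb2, Psmb3, Psmb4 and Psmb6) were called higher. Of the 42 genes 19 rose (45.2%) and 2 fell (4.76%) by edgeR's quasi-likelihood test at a Benjamini-Hochberg adjusted p under 0.05 over all 13048 genes. Over all genes tested 18.4% rose and 16.3% fell. The median log2 fold change was 0.37 over the 42 genes and -0.02 over all genes. The 31 core genes (rings, ATPases, base and lid) summed to 3850, 3713, 4089 and 3579 CPM in WT controls, replicates 1 to 4 in the order used throughout, and to 7714, 5044, 4473 and 4264 CPM after unloading. Without overlap between control and unloaded libraries, 16 of the 42 genes were higher and 1 lower, where 17.4% and 16% of all genes were. The 2 groups of sums do not overlap, and replicate 1 of the unloaded group stands far above the other 3.

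Among the ATPases, which form the ring that unfolds substrates and threads them into the core, 4 of 6 rose and the median log2 fold change was 0.47. Psmc6 changed most of all 42 genes. It was at 19.8, 27.6, 20.6 and 33.3 CPM in WT controls and at 108.9, 75.5, 60.5 and 61.3 CPM after unloading. The groups do not overlap, and every unloaded library was well above the highest control (log2 fold change 1.60, SE 0.19, adjusted p = 2.58e-06, edgeR). Psmc6 is also the gene with the lowest GC content of the 42 (37.0%), and with the GC and length trend removed its log2 fold change was 0.46 (edgeR adjusted p = 0.0146). Psmc1 (0.54), Psmc2 (0.53) and Psmc3 (0.40) rose too, Psmc2 losing its call with the trend removed (0.51, edgeR adjusted p = 0.0652). Psmc5 gave 0.27 and was the ATPase gene with the smallest value.

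The 3 other base subunits are the scaffold proteins Psmd1 and Psmd2 and the ubiquitin receptor Psmd4, and all 3 rose without overlap between the groups. Psmd4 was at 162.5, 154.9, 169.8 and 133.2 CPM in WT controls and at 476.3, 281.1, 222.3 and 202.3 CPM after unloading. Its log2 fold change was 0.93 (SE 0.24, edgeR adjusted p = 0.00383), and all 4 unloaded libraries lay above all controls. Psmd2 was at 373.9, 354.5, 355.4 and 304.4 CPM in controls and at 982 CPM (replicate 1), 521.5, 508.6 and 385.9 CPM after unloading. Its groups do not overlap either, although replicate 4 lies only just above the highest control (log2 fold change 0.79, SE 0.21, edgeR adjusted p = 0.0046). Psmd1 gave 0.68.

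In the lid, which carries the deubiquitinase Psmd14, 5 of 8 genes rose, with a median log2 fold change of 0.58. Psmd14 gave the largest value (0.75, edgeR adjusted p = 0.00401), followed by Psmd11 (0.74), Psmd8 (0.68), Psmd12 (0.60) and Psmd6 (0.57). Psmd13 gave 0.02. Psmd14 was at 30.3, 31.4, 31.4 and 32.1 CPM in controls and at 82.8, 46.0, 43.6 and 37.4 CPM after unloading. The control libraries were nearly level, and every unloaded library exceeded them, but with the trend removed Psmd14 gave 0.30 (edgeR adjusted p = 0.241).

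In the core particle, 5 of 7 alpha ring genes and 1 of 7 constitutive beta genes rose. Psma7 led the alpha ring. It was at 94.9, 99.8, 94.96 and 96.2 CPM in WT controls and at 258.5, 172.8, 130.4 and 130.9 CPM after unloading. No unloaded library came near the controls, which were almost level (log2 fold change 0.84, SE 0.20, edgeR adjusted p = 0.00174). Psma4 (0.63), Psma5 (0.59), Psma2 (0.55) and Psma3 (0.29) rose too, whereas Psma1, the smallest of the ring, gave 0.11. After trend removal Psma2 and Psma3 changed sign and were no longer called (-0.38 and -0.28), and Psma4 lost its call (0.38). In the beta ring Psmb2 rose (0.47, edgeR adjusted p = 0.0174). The catalytic genes Psmb5 and Psmb6 gave -0.03 and -0.01, and Psmb7, which encodes the trypsin-like subunit, gave 0.26. After trend removal Psmb6 gave 0.35 and was called (edgeR adjusted p = 0.0173), and Psmb5 gave 0.37 (edgeR adjusted p = 0.0705).

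The activators moved in opposite directions. Psme4 encodes PA200, a cap that opens the core independently of ubiquitin, and Psme1 and Psme2 encode the alpha and beta subunits of PA28, an interferon-inducible cap. Psme4 was at 136.6, 165.9, 175.4 and 213 CPM in WT controls and at 441 CPM (replicate 1), 290.7, 263.6 and 274.5 CPM after unloading. All unloaded libraries were higher than all controls (log2 fold change 0.88, SE 0.15, edgeR adjusted p = 6.18e-05). Psme1 was at 46.4, 41.7, 42.2 and 40.4 CPM in WT controls and at 15.6, 21.2, 19.8 and 23.9 CPM after unloading. Here every unloaded library was below every control, the only such case among the 42 genes (log2 fold change -1.09, SE 0.16, edgeR adjusted p = 1.66e-05). Psme2 fell by less and its groups overlap (-0.44, edgeR adjusted p = 0.0132, and -0.24 with the trend removed, not called), and the nuclear activator Psme3 gave -0.04. Neither the assembly factors Psmd5, Psmd9 and Psmd10 (-0.06 to 0.10) nor the inhibitor Psmf1 (0.15) passed the test.

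**Figure D2:**
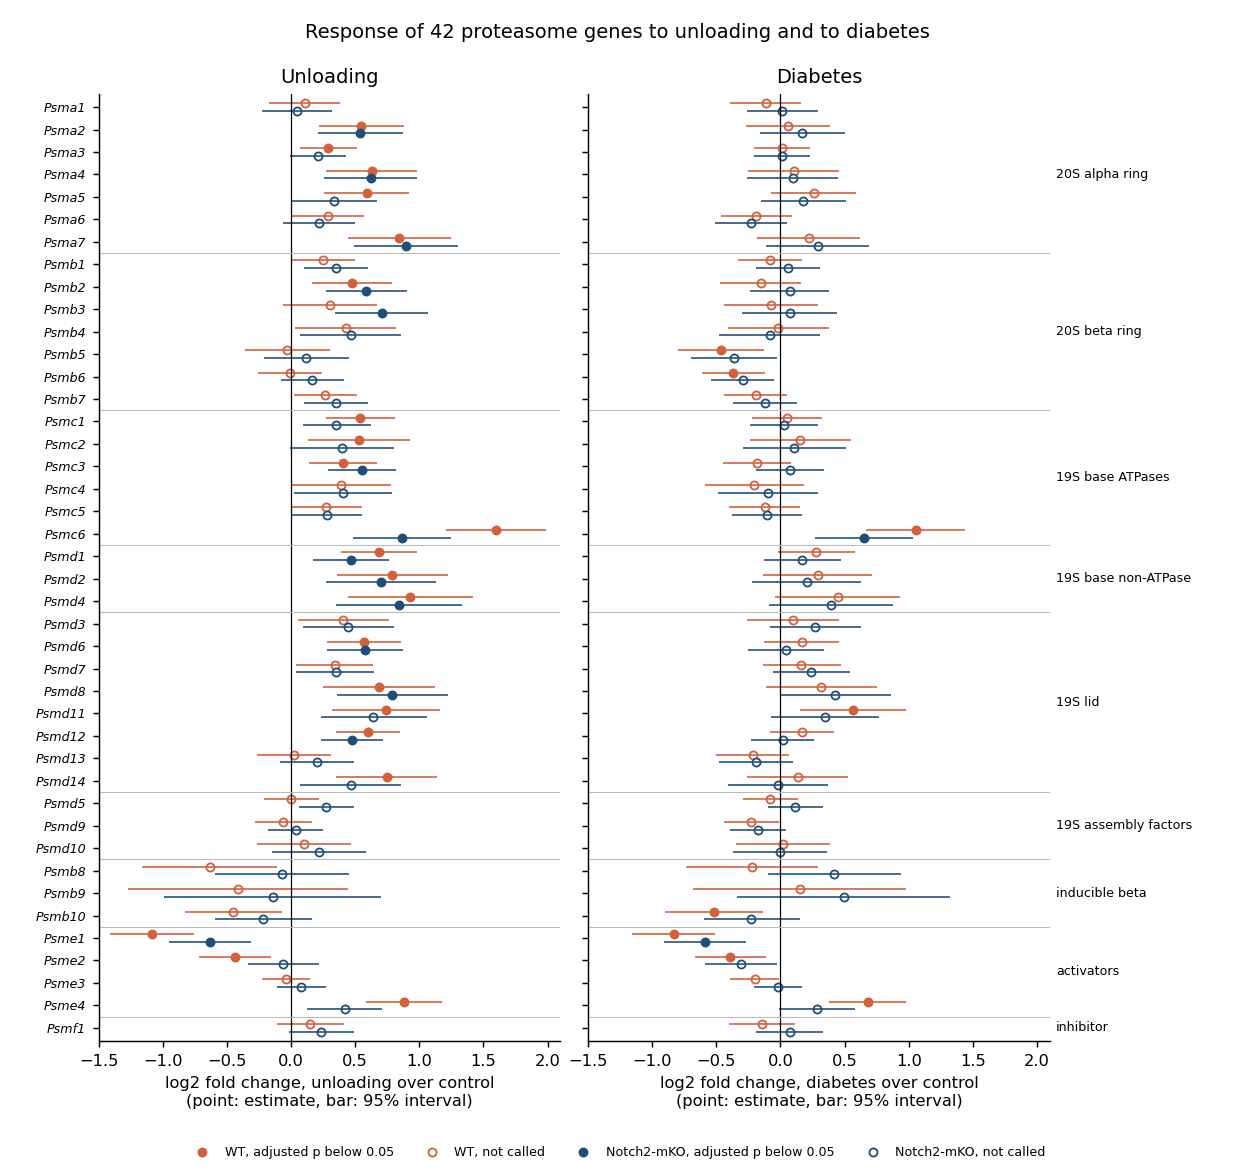
Log2 fold change of each of the 42 proteasome genes against the controls of the same genotype, with its 95% confidence interval from edgeR, for unloading and diabetes. Genes are grouped by subcomplex. After unloading most core genes lie above 0 in both genotypes and Psme1 lies below 0. After streptozotocin most intervals cross 0, and Psmc6 and Psme1 lie on opposite sides.

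These counts depend on 1 library. WT-Unloading replicate 1 was the highest of its group for 37 of the 42 genes and for all 31 core genes. Relative to the mean of the WT controls, the median log2 ratio of its core genes was 1.05, against 0.33, 0.18 and 0.15 in replicates 2, 3 and 4. Without it 10 genes rose and 2 fell, and the median over the 42 genes was 0.13. Psma7, Psmc1, Psmc6, Psmd1, Psmd2, Psmd4, Psmd6, Psmd12, Psmd14, Psme1 and Psme4 were called whichever library of the 2 groups was left out. With the GC and length trend removed 20 genes rose (47.6%, against 14% of all genes) and 2 fell (4.76%, against 11.5%), and 15 of the 21 calls kept their sign and call. The 6 that did not were Psma2, Psma3, Psma4, Psmc2, Psmd14 and Psme2. The 7 that were called only with the trend removed were Psmb3, Psmb4, Psmb6, Psmc4, Psmc5 and Psmd3, all higher, and the assembly factor Psmd5, lower.

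In unloaded Notch2-mKO muscle 13 genes of the regulatory particle and of both rings rose, and 12 of them had also risen in WT muscle. Fitting only the 2 groups compared left 2 higher and 1 lower. Of the 42 genes 13 rose (31%) and 1 fell (2.38%), against 4.11% and 3.2% of all genes tested. The median log2 fold change was 0.35 over the 42 genes and 0.02 over all genes. The core genes summed to 3561, 4062, 4230.5 and 3659 CPM in Notch2-mKO controls and to 6130.5, 4617, 4536 and 6508 CPM after unloading. Without overlap 19 genes were higher and 1 lower, where 6.39% and 6.2% of all genes were. The 2 groups of sums do not overlap, and replicates 1 and 4 of the unloaded group stand above replicates 2 and 3. The genes that rose in both genotypes were Psma2, Psma4, Psma7, Psmb2, Psmc3, Psmc6, Psmd1, Psmd2, Psmd4, Psmd6, Psmd8 and Psmd12. Psmb3 was called in Notch2-mKO muscle alone, and Psma3, Psma5, Psmc1, Psmc2, Psmd11, Psmd14 and Psme4 in WT muscle alone. None of these differences between genotypes passed its own test (below).

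By role, 3 of 7 alpha ring genes, 2 of 7 beta ring genes, 2 of 6 ATPases, all 3 base subunits and 3 of 8 lid genes rose. Psma7 was at 93.1, 92.7, 104.7 and 88.4 CPM in Notch2-mKO controls and at 227.3, 132.1, 135.5 and 210.2 CPM after unloading. The groups do not overlap, and the unloaded libraries form a higher pair (replicates 1 and 4) and a lower pair (log2 fold change 0.90, SE 0.20, edgeR adjusted p = 0.00952). Psmc6 was at 41.4, 25.3, 28.7 and 28.3 CPM in controls and at 69.2, 54.2, 46.8 and 55.8 CPM after unloading. All unloaded libraries again exceeded all controls, of which replicate 1 was the highest (log2 fold change 0.87, SE 0.19, edgeR adjusted p = 0.00849). Psmd4 (0.84), Psmd8 (0.79), Psmb3 (0.71) and Psmd2 (0.70) followed. Psmb7 gave 0.35, Psmb6 0.16 and Psmb5 0.12, none of them called. Psme1 was the only gene to fall. It was at 32.9, 33.5, 34.1 and 38.9 CPM in controls and at 18.97, 27.2, 25.7 and 18.3 CPM after unloading. Its groups do not overlap (log2 fold change -0.63, SE 0.16, edgeR adjusted p = 0.0182).

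Calls in Notch2-mKO muscle were fewer in 6 of the 8 fits that left out 1 library. Without unloading replicates 2 and 3 in turn 13 and 14 genes were called higher. Without unloading replicate 1 or 4 in turn 6 genes were called higher, and without control replicates 1, 2, 3 and 4 in turn 7, 6, 8 and 3. Psma7, Psmc3 and Psmc6 were called in every one of these fits. With the trend removed 10 genes rose (23.8%, against 4.41% of all genes) and 1 fell. Psma2 (0.19), Psma4 (0.47), Psmd1 (0.42) and Psmd12 (0.38) lost their call and Psmd11 gained one (0.63), so that of the 12 genes called in both genotypes Psma2 and Psma4 were then called in neither. On the authors' own log2 values limma called 0 of the 42 genes, with 22 at an unadjusted p under 0.05, where edgeR had 27. Fold changes of the 42 genes in the 2 genotypes, which share no libraries, ran together (Pearson r = 0.91, Spearman rho = 0.89, n = 42 genes, and r = 0.61 over all genes tested), a description across genes whose values share the library's scaling and base composition.

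**Figure D3:**
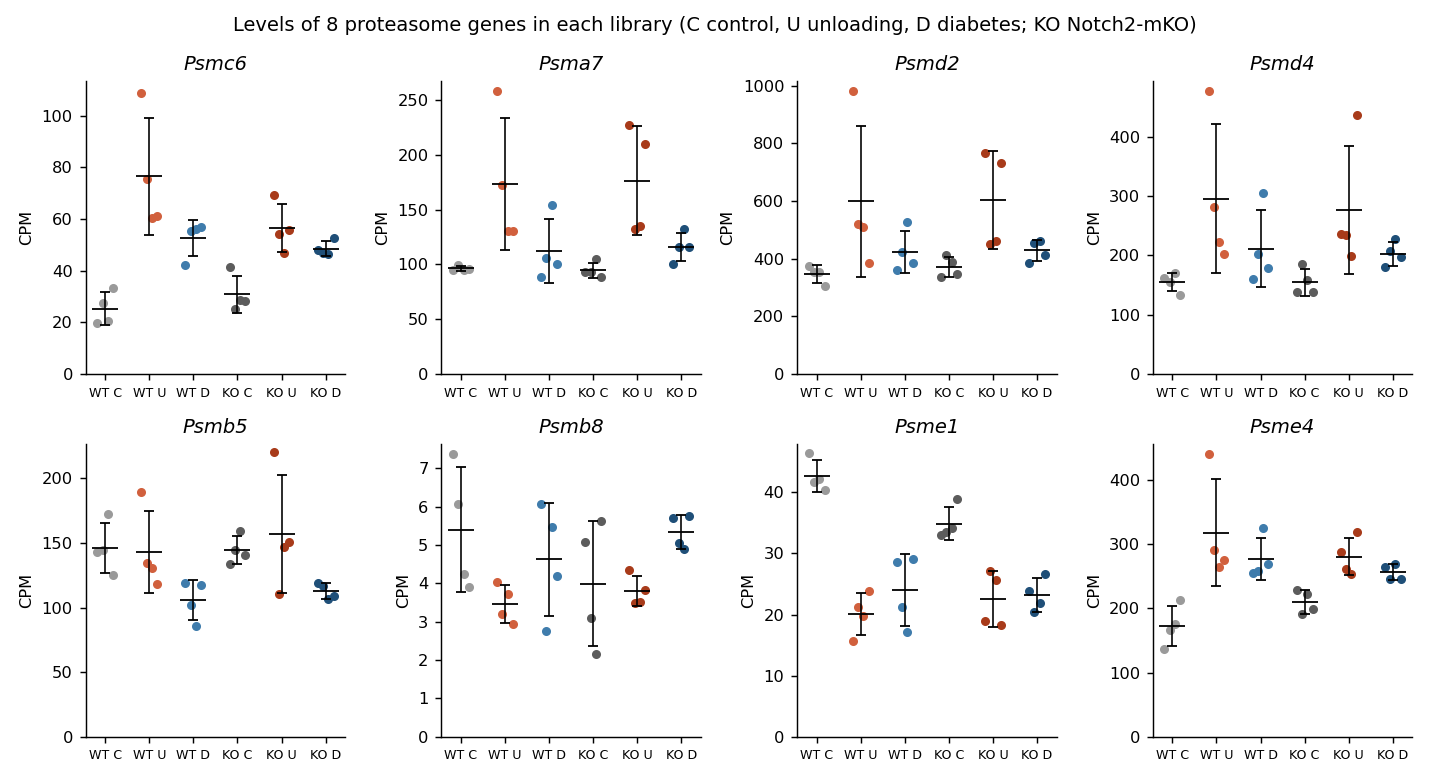
CPM of 8 proteasome genes in each library (points) with the mean and SD of each group of 4 (lines). C is control, U unloading, D diabetes and KO Notch2-mKO. By group mean Psmc6, Psma7, Psmd2 and Psmd4 are highest in the unloaded groups of both genotypes, Psmb5 is lowest in the diabetic groups, Psmb8 is scattered within the control groups, Psme1 is highest in the controls, and Psme4 is higher in the treated than in the control groups.

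No proteasome gene was called between the genotypes in any condition, and none in the difference of the response to unloading or to diabetes, by edgeR or by DESeq2. Over all genes edgeR called 0% in these 5 comparisons. At an unadjusted p under 0.05 there were 2 of the 42 genes between genotypes in unloaded muscle, 2 in the difference of the response to unloading, and 0 in the other 3 comparisons. In controls the smallest p belonged to Psme4 (log2 difference, Notch2-mKO minus WT, 0.28, edgeR adjusted p = 0.893), and in diabetic muscle to Psme3 (0.17, edgeR adjusted p = 0.872). In unloaded muscle it belonged to Psme2 (0.34, edgeR adjusted p = 0.426), followed by Psmc6 (-0.44, edgeR adjusted p = 0.444). The 95% interval of a difference between genotypes reached 0.32 log2 units to either side for the median gene, and that of a difference between responses 0.45. A p that misses the threshold here does not show that the genotypes were alike.

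Psmc6 and Psme4 were the genes with the smallest p in the difference of the response to unloading. For Psmc6 the difference was -0.73 (95% interval -1.27 to -0.19, edgeR adjusted p = 0.212), a smaller fold change in Notch2-mKO muscle, and for Psme4 it was -0.46 (-0.88 to -0.04, edgeR adjusted p = 0.297). Both transcripts are of low GC content, at 37.0% and 43.9%. With the trend removed the log2 fold change of Psmc6 was 0.46 in both genotypes, and the difference for Psme4 was -0.12. In the difference of the response to diabetes Psme4 came first as well (-0.39, edgeR adjusted p = 0.598).

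In diabetic WT muscle the proteasome genes did not move together. Of the 42, 3 rose (7.14%, against 17.8% of all genes) and 5 fell (11.9%, against 15.5%), and the median log2 fold change was 0.00 against -0.02 over all genes. The core genes summed to 3724, 3999.7, 4357 and 3914 CPM, which overlaps the WT controls. Psmc6, Psmd11 and Psme4 rose, and Psmb5, Psmb6, Psmb10, Psme1 and Psme2 fell. Without overlap 4 genes were higher and 8 lower, where 15.9% and 14.2% of all genes were. No alpha ring gene and no base subunit other than Psmc6 was called. On the authors' own log2 values, tested with limma, 11 genes rose and 1 fell, with a median of 0.26 over the 42 genes and 0.10 over all genes. Both the values and the test differ between these fits, so the source of the difference cannot be told apart.

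Psmc6 was at 42.3, 55.3, 56.1 and 57.1 CPM in diabetic WT libraries, all above the highest control at 33.3 CPM (log2 fold change 1.06, SE 0.19, edgeR adjusted p = 0.000163). Its trend-removed value was -0.04 and not called. Psme4 was at 254.5, 258.8, 325.1 and 268.6 CPM, above all controls (0.68, SE 0.14, edgeR adjusted p = 0.000865), and gave 0.18, not called, with the trend removed. Psme2 fell (-0.39) and gave -0.15, not called, with the trend removed. Psmd11, a lid subunit, gave 0.56 (edgeR adjusted p = 0.034) with overlapping groups, and stayed called with the trend removed (0.55).

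The catalytic genes Psmb5 and Psmb6, for the chymotrypsin-like and caspase-like subunits, fell in diabetic WT muscle. Psmb5 was at 142.7, 144.2, 172.2 and 125.4 CPM in WT controls and at 119, 101.9, 85.4 and 117.4 CPM in diabetes. All diabetic libraries were below all controls (log2 fold change -0.46, SE 0.16, edgeR adjusted p = 0.0298). Psmb6 behaved alike (-0.37, edgeR adjusted p = 0.0205), and Psmb7 gave -0.19. Both genes have a high GC content, and with the trend removed Psmb5 gave -0.02 and Psmb6 0.03, neither of them called. Psme1 was at 28.5, 21.2, 17.1 and 29.1 CPM, below every control (-0.83, SE 0.16, edgeR adjusted p = 0.0003), and was still called with the trend removed (-0.57).

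The 8 calls in diabetic WT muscle were 4 without diabetic replicate 2, 3 without diabetic replicate 3, and 4, 5 and 3 without control replicates 1, 2 and 3 in turn. Psmc6, Psme1 and Psme4 were called in every fit that left out 1 library. After trend removal 2 genes rose (Psmd4 and Psmd11; 4.76%, against 12.4% of all genes) and 5 fell (11.9%, against 11.4%; Psma2, Psma3, Psmb1, Psmd5 and Psme1).

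**Figure D4:**
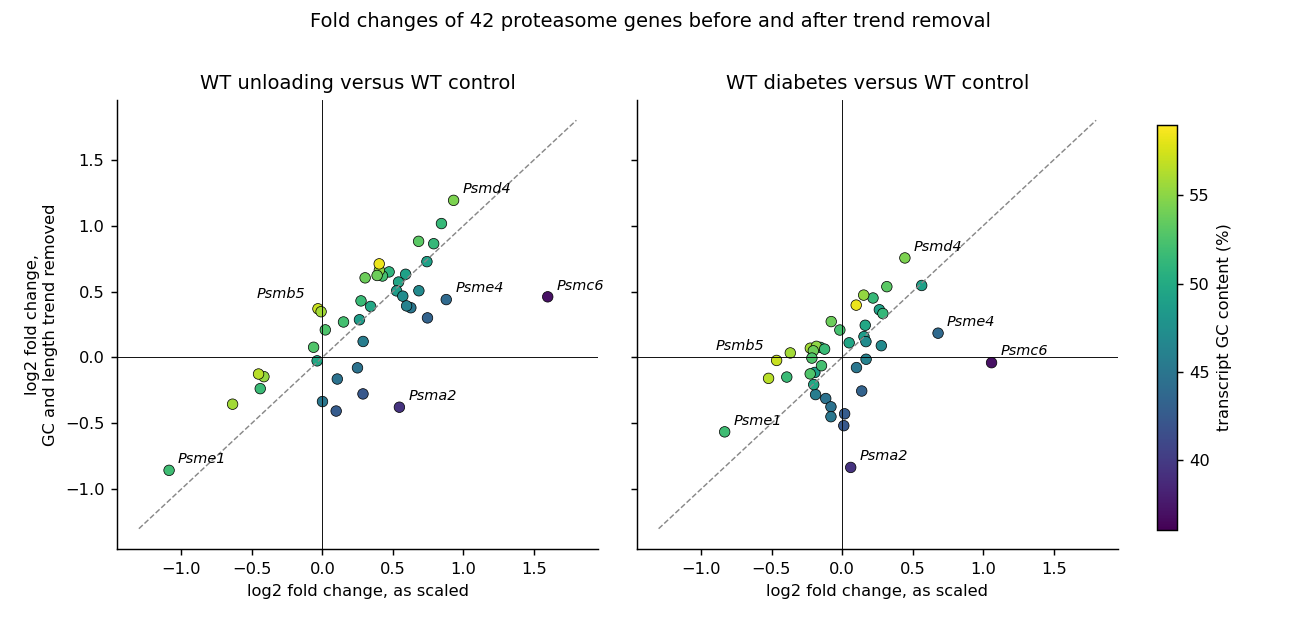
Log2 fold change of the 42 proteasome genes as scaled (horizontal axis) and with each library's GC and length trend removed (vertical axis), for WT unloading and WT diabetes. Points are coloured by the GC content of the transcript. Low-GC genes such as Psmc6 and Psma2 lie below the diagonal and high-GC genes such as Psmb5 and Psmd4 above it, while Psme1 is below 0 on both axes.

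In diabetic Notch2-mKO muscle 1 gene rose (2.38%, against 3.05% of all genes) and 1 fell (2.38%, against 2.54%), and they were again Psmc6 and Psme1. The median log2 fold change was 0.07 over the 42 genes and -0.01 over all genes. Psmc6 was at 48.2, 46.9, 46.4 and 52.9 CPM, above all 4 controls (log2 fold change 0.65, SE 0.19, edgeR adjusted p = 0.0405). Psme1 was at 23.8, 20.3, 21.8 and 26.7 CPM, below all 4 controls (-0.59, SE 0.16, edgeR adjusted p = 0.0311). Without overlap 6 genes were higher and 6 lower, where 8.69% and 9.19% of all genes were. Psmc6 and Psme1 are the only 2 genes called in all 4 treatment comparisons, the 2 of each genotype sharing their controls. The core genes summed to 3869, 4153, 4401 and 4071 CPM, within or near the range of the Notch2-mKO controls. Psmb5 (-0.36) and Psmb6 (-0.30) did not pass the test, although in both every diabetic library was below every control.

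Neither call in diabetic Notch2-mKO muscle was stable. Each was lost in 7 of the 8 fits that left out 1 library of the 2 groups, all but that without control replicate 1, and both were lost with the trend removed, when 0 genes were called (against 2.29% of all genes higher and 2.04% lower). On the authors' log2 values limma called 13 genes higher and 1 lower, with a median of 0.20 over the 42 genes and 0.03 over all genes, against the 1 and 1 given by edgeR.

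Set directly against unloading, diabetes left 6 genes lower in WT and 5 in Notch2-mKO muscle, and 0 in either when only the 2 groups compared were fitted. In WT muscle 0 of the 42 genes were higher and 6 lower (14.3%, against 1.24% of all genes lower and 2.31% higher), with a median log2 difference, diabetes minus unloading, of -0.37 over the 42 genes and -0.01 over all genes. The 6 were the alpha ring gene Psma6 (-0.48), the beta ring genes Psmb2 (-0.63) and Psmb7 (-0.46), the ATPases Psmc1 (-0.49) and Psmc3 (-0.59) and the lid gene Psmd12 (-0.43). Psmc3 had the smallest p. It was at 430.2, 295.5, 282.4 and 287.3 CPM in unloaded and at 206.5, 221.1, 209.1 and 226.2 CPM in diabetic WT libraries. The groups are well apart (edgeR adjusted p = 0.0109). Without overlap 0 of the 42 genes were higher and 14 lower, where 5.25% and 5% of all genes were. After trend removal 0 genes were higher and 5 lower (11.9%, against 1.57% of all genes lower and 2.37% higher).

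In Notch2-mKO muscle 5 genes were lower in diabetes than in unloading (11.9%, against 1.12% of all genes) and 0 higher (against 1.95%), with a median of -0.31 over the 42 genes and -0.03 over all genes. They were Psmb6 (-0.46), Psmb7 (-0.47), Psmc3 (-0.48), Psmd6 (-0.53) and Psmd12 (-0.46). Psmb7 was at 367.1, 249, 274.3 and 286.6 CPM in unloaded and at 218.4, 216.1, 210.2 and 204.4 CPM in diabetic libraries, without overlap (edgeR adjusted p = 0.0304). Without overlap 1 gene was higher and 14 lower, where 5.23% and 4.83% of all genes were. After trend removal 0 genes were higher and 4 lower (9.52%, against 1.15% lower and 2.16% higher of all genes). Leaving out libraries changed both counts. Without WT-Unloading replicate 1 no gene was called in WT muscle and the median was -0.16, and without WT-Diabetes replicates 1 to 4 in turn 3, 2, 3 and 2 were. Without WT-Unloading replicate 2, 3 were called. In Notch2-mKO muscle 0, 0, 1 and 0 genes were called without diabetic replicates 1 to 4 in turn, and 0 and 1 without unloading replicates 1 and 4.

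The inducible beta genes Psmb8, Psmb9 and Psmb10 replace Psmb5, Psmb6 and Psmb7 in the immunoproteasome, the form that interferon and leukocytes favour. None rose with the core genes after unloading. Psmb8 was at 7.38, 6.08, 4.24 and 3.90 CPM in WT controls and at 4.03, 3.21, 3.73 and 2.93 CPM in unloaded WT libraries. The ranges meet, and the difference did not pass the test (log2 fold change -0.64, edgeR adjusted p = 0.0538). Psmb10 gave -0.45 (edgeR adjusted p = 0.0574) and Psmb9, -0.41 (edgeR adjusted p = 0.464). In diabetic WT muscle Psmb10 fell (-0.52, edgeR adjusted p = 0.0304), with overlapping groups, and gave -0.16 with the trend removed, not called. The 3 inducible genes ran from -0.52 to 0.15 in that comparison. In Notch2-mKO muscle none of the 3 was called. Their values ran from -0.22 to -0.07 after unloading and from -0.23 to 0.49, with 2 above 0, in diabetes. Reads over Psmb8 and Psmb9 are also uncertain, since their exons overlap Gm20496 and Tap1 on the opposite strand and the strandedness of the counting is not given in the sources used here.

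As a share of the pair, Psmb8 made up 1.72% ± 0.54 (SD, n = 4) of Psmb8 plus Psmb5 CPM in WT controls, 1.14% ± 0.135 after unloading and 2.03% ± 0.736 in diabetes. In Notch2-mKO muscle the shares were 1.30% ± 0.588, 1.16% ± 0.222 and 2.17% ± 0.183. Only the diabetic Notch2-mKO libraries, at 1.98% to 2.42%, lay wholly above their controls, at 0.627% to 1.84%. Psmb10 made up 2.99% ± 0.867, 1.89% ± 0.476 and 2.41% ± 0.452 of its pair in WT muscle and 2.81% ± 0.468, 1.93% ± 0.369 and 2.60% ± 0.264 in Notch2-mKO muscle, in the same order of conditions. Psmb9 made up at most 1.12% of its pair in any library.

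Of 15 genes of interferon signalling and antigen presentation 1 rose and 4 fell in unloaded WT muscle, 1 fell in unloaded Notch2-mKO muscle, and 2 rose in each diabetic comparison. Shares of all genes to read these and the following list counts against are 18.4% higher and 16.3% lower in WT unloading, 4.11% and 3.2% in Notch2-mKO unloading, 17.8% and 15.5% in WT diabetes, and 3.05% and 2.54% in Notch2-mKO diabetes. B2m, the light chain of class I molecules, fell in unloaded WT muscle (-0.50), and the peptide transporter Tap1 gave -0.68 without passing the test. Leukocyte markers were counted as well. Of 15 such genes found, 13 were tested. In WT muscle 7 fell after unloading and 4 in diabetes, where 2 rose, and 0 were called in Notch2-mKO muscle. Their summed level was 173 to 215 CPM in WT controls, 83.5 to 147 after unloading and 114 to 144 in diabetes, and 114 to 191, 119 to 154 and 115 to 153 CPM in the Notch2-mKO groups, and none was at 0 throughout. Their part in the fall of Psme1 was not tested.

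Other marker lists were counted in the same way, against the same shares of all genes. Of 12 muscle fibre genes 3 fell in unloaded and 6 in diabetic WT muscle, and 2 and 1 in Notch2-mKO muscle. Of 8 endothelial genes 3, 3, 3 and 0 fell in WT unloading, Notch2-mKO unloading, WT diabetes and Notch2-mKO diabetes. Of 6 fibroblast and tendon genes 3, 2, 3 and 3 fell and 1, 0, 1 and 0 rose. Of 4 tested smooth muscle and pericyte genes 1, 0, 2 and 2 fell and 1, 0, 1 and 0 rose, Acta2 being listed at 0 in all libraries, and 0 of 3 red blood cell genes was called in any of the 4. The part of these lists in the changes of the proteasome genes was not tested.

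Genes that assemble, regulate or serve the proteasome were counted from a list of 26, of which 23 were found. In unloaded WT muscle 9 rose and 0 fell, in unloaded Notch2-mKO muscle 3 and 0, in diabetic WT muscle 8 and 2, and in diabetic Notch2-mKO muscle 2 and 0, where 18.4% and 16.3%, 4.11% and 3.2%, 17.8% and 15.5%, and 3.05% and 2.54% of all genes rose and fell. Ddi2, the protease that cuts and activates NRF1, was at 24.3, 31.9, 19.3 and 28.9 CPM in WT controls and at 84.03, 73.6, 63.9 and 56.8 CPM after unloading, with no overlap (log2 fold change 1.42, SE 0.23, edgeR adjusted p = 4.6e-05). It rose in the other treatment comparisons too (1.06 in unloaded Notch2-mKO, 1.07 in diabetic WT and 0.98 in diabetic Notch2-mKO muscle) and was called in all 4 with the trend removed. The groups overlap in unloaded Notch2-mKO muscle, at 29.1, 65.2, 53.9 and 73.2 CPM against 30.7, 29.5, 20.7 and 25.3 CPM in controls. AI314180, the mouse symbol of the proteasome adaptor Ecm29, rose in both unloading comparisons (0.75 and 0.44) and in diabetic WT muscle (0.54), and with the trend removed was called in unloaded WT muscle alone (0.33).

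Nfe2l1 itself rose by less, at 0.29 in unloaded WT (edgeR adjusted p = 0.0163) and 0.29 in diabetic WT muscle (edgeR adjusted p = 0.0174), and gave 0.14 and 0.22 in the Notch2-mKO comparisons. Nfe2l2, which encodes NRF2, rose in unloaded (0.49) and diabetic WT muscle (0.52), and was not called in either with the trend removed (0.32 and 0.34). The deubiquitinase gene Usp14 rose in unloaded WT muscle (0.63) but gave -0.19 with the trend removed. Pomp, which encodes the chaperone of core particle maturation, was at 47.1 ± 2.84 CPM in WT controls and 53.7 ± 4.22 after unloading (0.19, edgeR adjusted p = 0.136) and was called in none of the 4. Ddi2 and Nfe2l1 rose in diabetic WT muscle, also with the trend removed. The median over the 42 proteasome genes in that comparison was 0.00 as scaled and 0.04 with the trend removed. A link between these regulators and the proteasome genes was not tested, and NRF1 protein was not measured.

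Libraries of 1 group differed most after unloading. The median log2 ratio of the 31 core genes to the mean of their own controls was 1.05, 0.33, 0.18 and 0.15 in the unloaded WT libraries and 0.63, 0.23, 0.24 and 0.73 in the unloaded Notch2-mKO libraries. In the other libraries it ran from -0.10 to 0.13. With the trend removed the unloaded WT values were 0.98, 0.38, 0.25 and 0.17, in the same order and all above 0. Diabetic WT replicate 3 then stood at 0.17, level with the lowest unloaded library, and the lowest unloaded Notch2-mKO library at 0.14, beside 0.12 in the highest control. The labels give no batch or collection date against which these differences could be set.

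**Figure D5:**
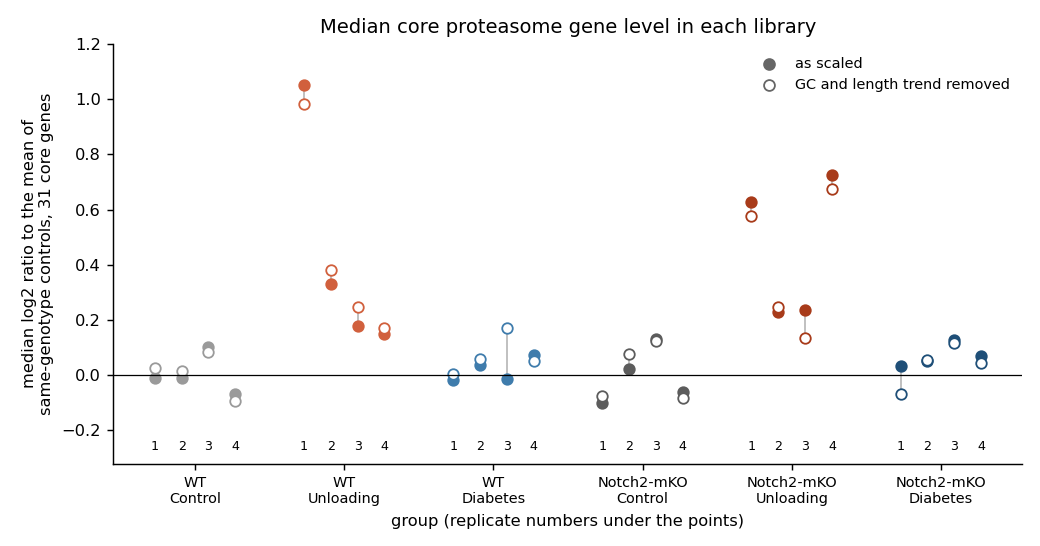
Median log2 ratio of the 31 core proteasome genes to the mean of the same genotype's controls, 1 column per library. Filled points are values as scaled and open points values with the GC and length trend removed. Filled points of unloaded libraries spread from 0.15 to 1.05 in WT and from 0.23 to 0.73 in Notch2-mKO muscle, with control and diabetic libraries at -0.10 to 0.13. The open points of the lowest unloaded libraries meet or nearly meet those of diabetic WT replicate 3 (0.17) and Notch2-mKO control replicate 3 (0.12).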

How the data were processed

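RNA-seq of 24 gastrocnemius libraries (6 groups of 4) was taken from 4 deposited tables. Per the file headers, the authors deposited estimated counts per RefSeq gene model, marked raw, and log2 values whose scaling is not stated. The 8 control columns occur in 2 tables each with identical values and were used once, and 0 columns were left unused. The build mm10 comes from the submitters' processing notes. Aligner, counter and strandedness: not given in the sources used here. Totals ran from 33112459 to 56369917 counts. The lowest chi-square per gene between replicates was 14.71, so no pair looked like 1 library.

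Counts were rounded and tested with edgeR 4.0.16 in R 4.3.3 (TMM, quasi-likelihood F test, 1 model over the 6 groups with 18 residual degrees of freedom, filterByExpr leaving 13048 genes, Benjamini-Hochberg threshold 0.05). For the trend-removed fit a spline (5 degrees of freedom) of GC content and transcript length from GENCODE vM21 was removed per library, and 98.9% of tested genes had both. Alternatives were DESeq2 1.42.0, other scalings and filters, the replicate number as a block, only the groups compared, and each library left out. Limma 3.58.1 on the authors' log2 values was chosen after seeing the data. On counts simulated for WT unloading over 12821 genes, edgeR recovered 89% of 100 genes changed by 1 log2 unit, 9% of 100 changed by 0.5, and made 1 false call. The simulation changed 200 genes and gave all genes the same spread, whereas 2395 genes rose and 2127 fell in the real WT unloading comparison. The recovered shares therefore need not hold for that comparison.

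The members and all gene lists were chosen with earlier results of these data known. Genes were named by rule: the 3 catalytic pairs, Psmc6, Psma7 and Psme4, the largest and smallest change of each subcomplex, called genes opposite to the majority, and the smallest p-values of the genotype comparisons. Other genes named were chosen after their values were seen. A gene of the interferon list that the rule names is not reported here. Exons of Psma4, Psma5, Psmb7, Psmb8, Psmb9, Psmc3, Psmd3, Psmd13 and Psme1 overlap a gene on the opposite strand, and those of Psmb5 and Psmd1 a gene on the same strand, so reads there are uncertain.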

Additional observations from a re-analysis of the deposited data

Results flagged for a closer look

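In each of the 252 sets of 1 gene in 1 group of 4 libraries, the highest or lowest library was compared with the other 3, and it stood apart in 19, its gap to the nearest library, as a part of the whole range, being above the 95% critical value of Dixon's test for 4 samples. Chance alone gives about 1 such set in 20.

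WT-Unloading replicate 1 accounted for 7 of the 19, always as the highest. It held Psmb2 at 104 CPM (58.3 to 62.7 in the other libraries), Psmb4 at 218 (104 to 121), Psmc3 at 430.2 (282 to 295), Psmc4 at 163 (75.8 to 89.8), Psmd3 at 243 (116 to 132), Psmd6 at 299 (179 to 193) and Psme4 at 441 (264 to 291). Notch2-mKO-Unloading replicate 4 accounted for 4, also as the highest, with Psmb1 at 168 CPM (119 to 123), Psmc2 at 286 (147 to 169), Psmc3 at 431 (300.1 to 319) and Psmd4 at 435 (199 to 236).

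The other 8 were smaller gaps. WT-Control replicate 3 was high for Psmc4 (90.3 CPM, 72.8 to 73.6 in the others) and Psmd10 (6.74, 5.04 to 5.32), and WT-Control replicate 4 low for Psmf1 (15.9, 17.2 to 17.4). WT-Diabetes replicate 1 was low for Psmc6 (42.3, 55.3 to 57.1), and Notch2-mKO-Control replicate 3 high for Psmd12 (104, 89.5 to 91.7). Notch2-mKO-Diabetes replicate 1 was high for Psma2 (60.0, 54.6 to 55.1) and low for Psmd1 (250.2, 279.7 to 283.6), and Notch2-mKO-Diabetes replicate 4 low for Psma3 (108.7, 119.9 to 120.8).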

How the results depend on the processing

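Counts of proteasome genes called, both directions together, moved by more than 1.5 times as follows. Limma on the authors' log2 values called 12 in WT unloading, 0 in Notch2-mKO unloading and 14 in Notch2-mKO diabetes. Fitting only the groups compared gave 3 in Notch2-mKO unloading, 8 in Notch2-mKO diabetes and 0 in both comparisons of diabetes with unloading. DESeq2 gave 8 for Notch2-mKO diabetes against unloading, and trend removal 0 in Notch2-mKO diabetes. With 1 library left out in turn, counts ran from 12 to 26 in WT unloading, 3 to 15 in Notch2-mKO unloading, 3 to 8 in WT diabetes, 0 to 2 in Notch2-mKO diabetes, 0 to 8 and 0 to 7 for diabetes against unloading in WT and Notch2-mKO muscle, and 0 to 0 in the genotype and response comparisons. The cause of these moves was not tested.

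The replicate numbers did not pair the libraries: same-numbered deviations correlated at -0.206 to 0.326, and 0 to 2 libraries per comparison correlated best with their own number. With the replicate block the counts for diabetes against unloading were 3 (WT) and 2 (Notch2-mKO). The block with the trend removed gave 2 and 1 there, 8 in Notch2-mKO unloading, 5 in WT diabetes and 0 in Notch2-mKO diabetes.

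Psma2 and Psma3, which changed sign in WT unloading, are not among the genes named by rule in the 4 treatment comparisons. Of the values of the rule-named genes that were called with or without the trend, 3 reversed with it removed. They were Psmb6 in WT unloading (0.35) and WT diabetes (0.034) and Psmc6 in WT diabetes (-0.04). With the block as well they were 0.34, 0.034 and -0.04. With the trend removed 69 values of the rule-named genes stayed called or stayed uncalled, 8 lost their call and 2 gained one. Values that stayed uncalled could still change sign, as Psmb5 did in WT unloading. DESeq2 added 4, and limma on the authors' values lost 13 and added 6. Leaving out libraries kept the call, or its absence, in 596 values, lost the call in 56 and added it in 4. Uncalled values could change sign here too. Psma1 in WT unloading gave 0.11 with all libraries and -0.09 without WT-Unloading replicate 1.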
